A study of Rattus norvegicus with 6 samples.

Results

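Fatty acids are built in the cytosol from acetyl-CoA, then lengthened and desaturated at the endoplasmic reticulum, and the genes described here encode 10 enzymes along that route. ATP-citrate lyase (Acly) and acetyl-CoA synthetase (Acss2) supply acetyl-CoA, and malic enzyme (Me1) supplies NADPH. Acetyl-CoA carboxylase alpha (Acaca) and fatty acid synthase (Fasn) make palmitate. The desaturases Scd, Fads1 and Fads2 introduce double bonds, and the elongases Elovl5 and Elovl6 lengthen the chain. The genes were chosen by name with earlier results of these data known, so their counts beside those of all genes are a description. A probe set was taken where the array's annotation assigns it to 1 of them alone. All 10 were found among the 14217 genes so named on the array, with 15 of 31042 probe sets: Acaca, Fasn, Me1, Elovl5 and Elovl6 had 2 each and the others 1. All 15 probe sets passed the signal filter.

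Transcription of most of these genes is known to be raised by the sterol regulatory element binding proteins, with SREBP-1 acting chiefly on fatty acid synthesis. Their release from the endoplasmic reticulum is held back by the Insig proteins when sterols are plentiful. Fibroblasts in serum can take up lipid as well as make it, and proliferating cells use new fatty acids for membranes.

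The arrays measured 3Y1 cells, rat embryonic fibroblasts that stably carry either an empty vector (Vector) or one that expresses the MUC1 cytoplasmic domain (MUC1-CD), the intracellular tail of a mucin. There were 2 arrays for Vector cells in culture, 2 for MUC1-CD cells in culture, and 2 for MUC1-CD cells grown in vivo as tumors in female athymic mice after injection under the skin. Such mice lack T cells and keep other host cells. Cultured cells grew in DMEM with fetal bovine serum. The labels call the arrays biological replicates. The sources used here do not give the age of the mice, the number of cells that gave each tumor, or whether a line is 1 clone or a pool. The study asked which genes accompany the transformation of these cells and their growth as tumors.

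The deposited values are MAS5 signals on a linear scale, with the same trimmed mean of 500.2 on each array. A change is a difference of log2(signal + 16), given with its standard error (SE) from limma. It understates the change of dim probe sets. P values come from limma and were adjusted by the Benjamini-Hochberg method over 18625 probe sets, and a change counts as called below 0.05. A gene is read from its brighter probe set unless the other is named. Signals of different genes are not compared, because probes differ in brightness.

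Control probe sets set the Vector arrays apart. For Gapdh, the signal near the 3' end over that near the 5' end was 11.5 and 17.8 on the Vector arrays, and 1.11 to 1.18 on the other 4 arrays. For actin, Vector replicate 2 stood out, with a ratio of 41.7. Vector replicate 1 had an actin ratio of 4.15, and MUC1-CD culture and tumors had 2.97 to 3.37. 5S rRNA had a signal of 1799.6 and 1469.8 in Vector cells, against 227.4 to 291.5 in MUC1-CD culture and tumors. Signs of RNA quality thus go with the Vector group, from which they cannot be told apart. What part these signs have in differences from Vector, or in gaps between the Vector arrays, was not tested. Vector replicates also differed more from each other (SD of the difference over probe sets 0.62 log2) than replicates in MUC1-CD culture (0.26) or tumors (0.28). The summed signal of 10 fibroblast markers was 124838 to 128093 on the Vector arrays, 89120 to 90274 in MUC1-CD culture and 104229 to 108239 in tumors.

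Promoter windows are shown for the members that changed by more than 1 log2 unit both between Vector and MUC1-CD culture and between MUC1-CD culture and tumors, where RefSeq's table for the GRCr8 assembly held one. These were Acss2, Scd, Fads1 and Fads2, while Elovl6 met the rule and is named only. The windows run from 250 bases before to 50 after the annotated start, on the strand of the gene. Capitals mark 4 motifs searched on both strands, as a description of these letters: the sterol regulatory element TCACNCCAC, the E-box CACGTG, the CCAAT box and the GC box GGGCGG.
Acss2 (chr3:164464453-164464752, plus strand): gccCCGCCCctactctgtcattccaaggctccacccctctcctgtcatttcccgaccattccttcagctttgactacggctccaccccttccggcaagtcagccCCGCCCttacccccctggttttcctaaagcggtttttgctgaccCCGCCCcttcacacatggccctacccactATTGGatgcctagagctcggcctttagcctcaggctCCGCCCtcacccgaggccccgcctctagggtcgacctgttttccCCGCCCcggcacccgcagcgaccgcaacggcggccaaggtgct
Scd (chr1:253231682-253231981, minus strand): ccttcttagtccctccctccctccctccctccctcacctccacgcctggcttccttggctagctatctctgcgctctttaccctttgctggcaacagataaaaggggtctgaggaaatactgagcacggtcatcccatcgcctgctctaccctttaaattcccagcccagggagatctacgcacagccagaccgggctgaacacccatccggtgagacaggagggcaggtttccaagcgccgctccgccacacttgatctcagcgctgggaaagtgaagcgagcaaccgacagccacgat
Fads1 (chr1:216252442-216252741, plus strand): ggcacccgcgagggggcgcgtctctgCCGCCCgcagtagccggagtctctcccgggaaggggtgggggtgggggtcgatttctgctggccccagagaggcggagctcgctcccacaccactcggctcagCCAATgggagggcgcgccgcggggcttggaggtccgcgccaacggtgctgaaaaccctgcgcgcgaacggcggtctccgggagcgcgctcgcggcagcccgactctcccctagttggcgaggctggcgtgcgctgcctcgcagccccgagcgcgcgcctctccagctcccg
Fads2 (chr1:216171984-216172283, minus strand): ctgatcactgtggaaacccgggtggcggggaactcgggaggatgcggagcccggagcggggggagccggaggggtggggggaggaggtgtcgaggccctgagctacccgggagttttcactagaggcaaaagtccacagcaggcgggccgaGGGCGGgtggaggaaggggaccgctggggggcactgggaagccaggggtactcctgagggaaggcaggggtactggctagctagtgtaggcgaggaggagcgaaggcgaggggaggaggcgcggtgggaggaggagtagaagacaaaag
The windows matched 7 of the 10 members, the other 3 being Acly, Elovl5 and Me1. A CCAAT box was present in 4 of the 7 (Acly, Acss2, Elovl5 and Fads1), against 37.5% of all 33469 promoter windows. A GC box was present in 5 of the 7 (Acly, Acss2, Fads1, Fads2 and Me1), against 33.1% of all windows. The Acss2 window held 5 GC boxes and a CCAAT box starting 73 bases before the start, and the Scd window held none of the motifs. An E-box was present in Elovl5 alone, against 6.42% of all windows. The sterol regulatory element in this spelling was in none of the 7, and in 1.12% of all windows. Fads1 and Fads2 lie next to each other on chromosome 1 and face apart.

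The first comparison, of both cell lines in culture, asked which genes go with the MUC1 domain. Of the 10 members, 8 rose, 0 fell and 2 did not pass the test. By limma, 21.2% of all 10037 genes tested were called higher and 24.9% lower. The median change of the members was 0.94 log2, and that of all genes tested was -0.04. The desaturases, Elovl6 and Acss2 made up the larger changes, and Elovl5, Me1, Acaca, Acly and Fasn the smaller ones. At an unadjusted p under 0.05, 0 members were lower, with Fasn just short of it (95% interval -0.50 to 0.0001).

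Among the desaturases, the rise of Scd was the largest on the log2 scale. Scd makes monounsaturated fatty acids such as oleate from saturated ones. Its signal was 298.5 and 99.4 on the Vector arrays, 1067.7 and 975.0 in MUC1-CD culture, and 91.5 and 51.7 in tumors. Both MUC1-CD culture arrays lay above all others, and the Vector arrays were far apart between themselves. Scd rose by 2.44 ± 0.46 log2 in MUC1-CD culture (5.13-fold in mean signal, n = 2 arrays a group, limma adjusted p = 0.00584). Without Vector replicate 1 the change was 3.17, and without Vector replicate 2 it was 1.72.

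Fads1, the delta-5 desaturase of polyunsaturated fatty acids, had close replicates. Its signal was 2529.9 and 2879.3 in Vector cells and 6995.3 and 7019.3 in MUC1-CD culture, and 2688.2 and 2546.2 in tumors. The culture arrays of MUC1-CD cells stood alone, while Vector and tumor arrays overlapped. Fads1 rose by 1.37 ± 0.10 log2 (2.59-fold, limma adjusted p = 0.000175). Fads2, the delta-6 desaturase of the same pathway, showed the same order at a dimmer probe set. Its signal was 154.2 and 116.5 on the Vector arrays, 500.4 and 542.8 in MUC1-CD culture and 133.3 and 99.9 in tumors. Fads2 rose by 1.84 ± 0.22 log2 (3.85-fold, adjusted p = 0.000891).

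The elongases also rose. Elovl6, which extends saturated and monounsaturated chains, had a signal of 1285.0 and 1054.7 in Vector cells and 3471.7 and 3053.6 in MUC1-CD culture, and 938.1 and 877.8 in tumors. The 3 groups did not overlap. Elovl6 rose by 1.47 ± 0.14 log2 in MUC1-CD culture (2.79-fold, limma adjusted p = 0.000418), and its other probe set by 2.12 ± 0.15 (adjusted p = 0.000131). Elovl5, which extends polyunsaturated chains, had a smaller change. It had 4667.4 and 5812.0 in Vector cells, 8775.0 and 7487.6 in MUC1-CD culture, and 5782.2 and 5710.0 in tumors, so that the tumor arrays lay within the range of Vector. Elovl5 rose by 0.64 ± 0.13 log2 (1.55-fold, adjusted p = 0.00834), and its dimmer probe set by 1.00 ± 0.28 (adjusted p = 0.0277).

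The enzymes that supply acetyl-CoA and NADPH differed among themselves. Acss2, which activates acetate, had a signal of 726.9 and 944.2 on the Vector arrays and 1983.9 and 2009.0 in MUC1-CD culture, and 510.2 and 494.6 in tumors, with no overlap of the groups. It rose by 1.25 ± 0.16 log2 (2.39-fold, limma adjusted p = 0.00110). Me1 had 941.4 and 995.0 in Vector cells, 1459.0 and 1376.2 in MUC1-CD culture, and 516.0 and 639.7 in tumors. The Me1 groups kept apart too, with MUC1-CD culture highest and tumors lowest. Me1 rose by 0.54 ± 0.15 log2 (1.46-fold, adjusted p = 0.0240), and the change at its other probe set was 0.40 ± 0.14 (adjusted p = 0.0508). Acly, which splits citrate into acetyl-CoA and oxaloacetate, did not pass the test. Its signal was 5930.8 and 7438.0 in Vector cells, 8697.9 and 8171.6 in MUC1-CD culture and 3595.5 and 4330.9 in tumors. The difference in culture was 0.34 ± 0.14 log2 (95% interval 0.0051 to 0.68, adjusted p = 0.0895), with both MUC1-CD arrays above both Vector arrays.

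**Figure D1:**
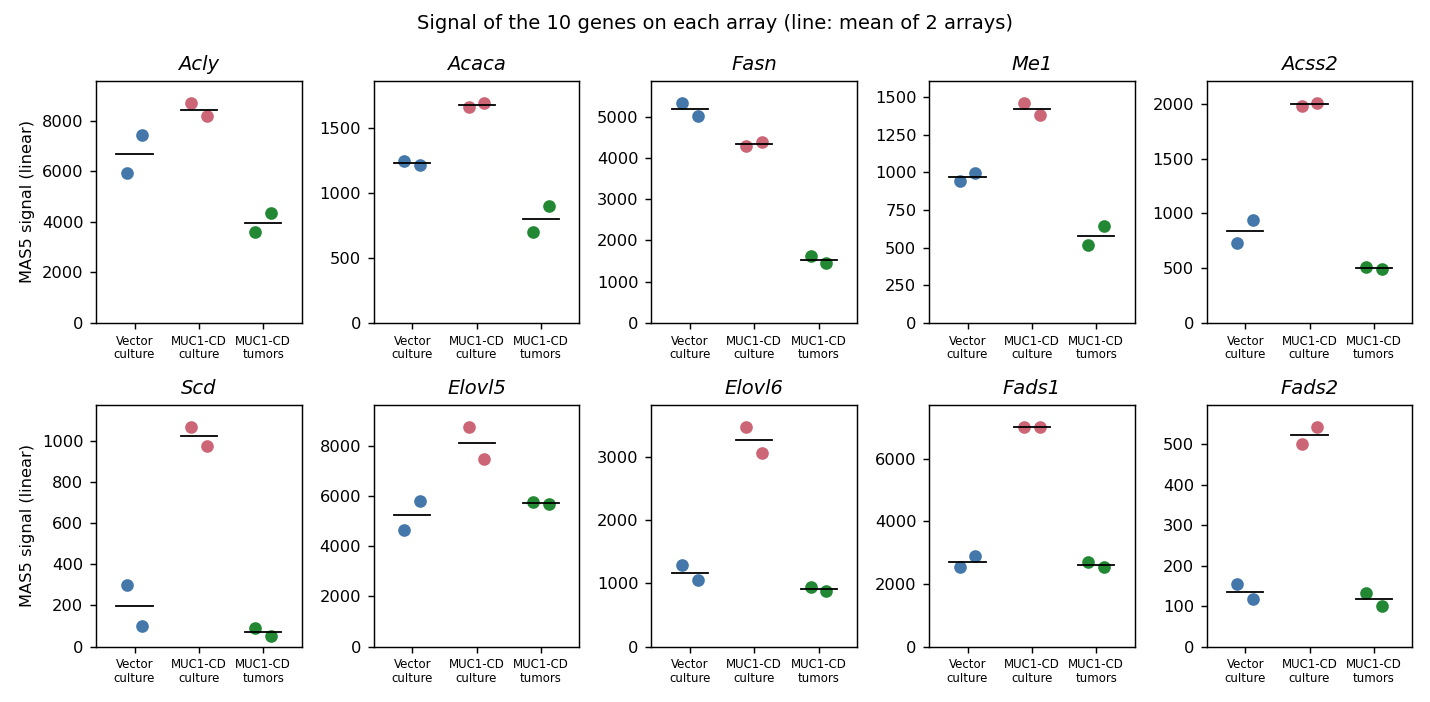
MAS5 signal (linear axes from 0) of each of the 10 genes on the 6 arrays, 1 point an array and a line at the mean of 2 arrays. In 9 panels MUC1-CD culture is the highest group, and in the Fasn panel Vector culture is, with mean signals of 5180, 4350 and 1530 from left to right.

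The enzymes of palmitate synthesis went different ways between the cultures. Acaca, whose product malonyl-CoA feeds the synthase, had 1250.3 and 1215.4 on the Vector arrays, 1665.2 and 1696.3 in MUC1-CD culture, and 701.7 and 900.9 in tumors. The change of 0.44 ± 0.15 log2 in culture (1.36-fold) passed narrowly (limma adjusted p = 0.0497) and was not called under 11 of 17 alternatives, over all of which it ranged from 0.12 to 0.84. Its dimmer probe set, at 47.4 and 30.3 in Vector cells, 99.9 and 125.1 in MUC1-CD culture, and 76.8 and 58.6 in tumors, rose by 1.24 ± 0.29 (adjusted p = 0.0134).

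Fasn was the member that went the other way. Its brighter probe set had 5334.8 and 5025.3 on the Vector arrays, 4301.3 and 4398.2 in MUC1-CD culture and 1618.6 and 1441.2 in tumors. Its dimmer one had 1070.8 and 914.6, then 523.2 and 520.5, then 286.2 and 247.4 in the same order of groups. At both probe sets the order was Vector, MUC1-CD culture, tumors, with no overlap. The first differed between the cultures by -0.25 ± 0.11 log2 (limma adjusted p = 0.0935), and the second fell by 0.90 (SE 0.16, adjusted p = 0.00407). Fasn lies on chromosome 10 of GRCr8, where the 20 nearest measured genes, 10 on each side, had a median change of -0.81 in this comparison. For the other members the same median lay between -0.40 (Acly, also on chromosome 10) and 0.28 (Acss2, on chromosome 3). In tumors against MUC1-CD culture the 20 neighbours of Fasn had a median of 0.017, and in tumors against Vector one of -0.71. The part of the neighbourhood in the change of Fasn was not tested.

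Without MUC1-CD culture replicate 1, 5 members were called higher, and Acaca, Me1 and Elovl5 were not. The call of Me1 was lost without either MUC1-CD culture array, where the lone array takes its spread from the other groups. It was also lost with array weights and with arrays scaled to equal medians, where the change of Me1 was 0.22. When arrays were scaled to equal medians, the median change over all probe sets went from 0.07 to -0.25, and 5 members were higher and 1 (Fasn) lower, with 13.0% of genes called higher and 39.5% lower against 21.2% and 24.9%. Relative to the median of all probe sets, the changes of Fasn and Scd were -0.32 and 2.37 with the deposited scaling and -0.33 and 2.39 after that scaling.

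The comparison of tumors with the same cells in culture addressed growth in the animal. All 10 members fell and 0 rose by limma, with 0 higher at an unadjusted p under 0.05 as well. Of all genes tested, 8.97% were called lower and 9.82% higher. The fit pools the error of all 3 groups, Vector included. With only the groups compared in the fit, 22.6% of genes were called lower and 25.1% higher. The median change of the members was -1.46 log2, and that of all genes tested 0.03. In these bulk samples, fewer tumor cells and less RNA per cell cannot be told apart.

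Scd had the largest fall, 3.60 log2 (SE 0.46), from a mean signal of 1021 ± 65.5 to 71.6 ± 28.1 (SD, n = 2; 14.3-fold lower, limma adjusted p = 0.00411). The gap between the Vector arrays is in this SE too, because the fit pools all 3 groups. The other desaturases moved with Scd. Fads2 fell by 2.03 (SE 0.22, 4.47-fold, adjusted p = 0.00199) and Fads1 fell by 1.42 (SE 0.10, 2.68-fold, adjusted p = 0.000463). Elovl6 fell by 1.83 (SE 0.14, 3.59-fold, adjusted p = 0.000594), and its other probe set, at 2956.5 and 3172.2 in culture and 1263.8 and 1192.8 in tumors, fell by 1.31 (SE 0.15, adjusted p = 0.00253).

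Elovl5 stood at the small end. It fell by 0.50 (SE 0.13, 1.42-fold, limma adjusted p = 0.0494), a call that 10 of 17 alternatives did not make. Its dimmer probe set had 137.6 and 169.8 in culture and 149.7 and 141.3 in tumors, with overlap (change -0.065 ± 0.28, adjusted p = 0.907).

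The suppliers of acetyl-CoA and NADPH all fell. Acss2 fell by 1.96 (SE 0.16, 3.97-fold, limma adjusted p = 0.000643), Me1 fell by 1.28 (SE 0.15, 2.45-fold, adjusted p = 0.00274) and Acly fell by 1.09 (SE 0.14, 2.13-fold, adjusted p = 0.00421). Both enzymes of palmitate synthesis were lower as well. Fasn fell by 1.50 (SE 0.11, 2.84-fold, adjusted p = 0.000380) and by 0.93 (SE 0.16, adjusted p = 0.0111) at its dimmer probe set. Acaca fell by 1.06 (SE 0.15, 2.10-fold, adjusted p = 0.00574), while its dimmer probe set differed by -0.62 ± 0.29 (adjusted p = 0.200). Without MUC1-CD culture replicate 1, with the same assumption on the lone array, 6 of the 10 members were called lower, with Acly, Acaca, Scd and Elovl5 at adjusted p = 0.0509 to 0.312, when 679 of all probe sets were called against 2952.

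Markers of host cells moved on the same arrays. The summed signal of 10 macrophage markers was 373 to 376 in MUC1-CD culture and 7222 to 7441 in tumors, that of 8 endothelial markers 184 to 221 and 2332 to 2476, and that of 8 skeletal muscle markers 123 to 232 and 7397 to 8371. Most of the macrophage sum in tumors came from Cd74, at 4210.6 and 4200.8. Acta1, at 5854.5 and 4971.2, gave most of the muscle sum. Cd163 did not rise, with means of 130 in MUC1-CD culture and 112 in tumors. The other markers of both lists had higher means in tumors, each at its brightest probe set. Most of the endothelial sum in tumors came from Aqp1, at 1763.4 and 1550.4. Flt1, Tek, Tie1 and Emcn were also higher there than in MUC1-CD culture. Pecam1 and Kdr stayed low, and Vwf went from a mean of 22.7 to 9.95. Adipocytes are among the host cells that make fatty acids. Levels of the enzymes described here in single host cell types were not measured. The sum over 11 adipocyte markers was 720 to 750 in MUC1-CD culture, 1417 to 1464 in tumors and 2008 to 2285 in Vector cells. Most of the sum in tumors came from Cfd (adipsin), at 522.0 and 580.3, and Fabp4, a fatty acid carrier, at 326.4 and 267.3. Cfd rose by 1.30 ± 0.16 log2 from MUC1-CD culture to tumors (limma adjusted p = 0.00358). Fabp4 was already at 237.0 and 250.6 in MUC1-CD culture. The changes of Fabp4 (0.26 ± 0.19, adjusted p = 0.41) and Lipe (0.40 ± 0.22, adjusted p = 0.26) were not called. Most of the sum in Vector cells was Cfd, at 1998.0 and 1611.3. Cidea, Lpl and Pck1 did not pass the signal filter, with mean signals of 8.30, 7.20 and 7.75 in MUC1-CD culture and 102, 97.1 and 54.0 in tumors. Adiponectin (Adipoq) was at 24.6 and 11.7 in tumors, and both perilipin probe sets (Plin1) at 3.6 to 47.1 over the 6 arrays, below the filter of 61.6. None of the markers named here was listed at 0. The part of host cells in the lower levels was not tested, nor was the reading of mouse RNA by probes made for rat. Tumor RNA also went through freezing, homogenization and columns, so the preparation of RNA cannot be told apart from growth in the animal.

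Tumors were set beside Vector cells to place the tumor levels against the control line. This comparison shares its arrays with the other 2 and is not independent of them. Of the 10 members, 5 were called lower and 0 higher by limma (0 higher at an unadjusted p under 0.05), where 26.6% of all genes tested were called lower and 24.8% higher. The palmitate enzymes and the suppliers of acetyl-CoA and NADPH lay below Vector, while the desaturases and elongases were not called at their brighter probe sets.

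Fasn fell by 1.75 log2 (SE 0.11, 3.39-fold, limma adjusted p = 5.62e-05), the largest of these falls. Acly, Me1, Acss2 and Acaca fell by 0.75, 0.74, 0.70 and 0.62, with adjusted p = 0.00489 to 0.0132. The dimmer probe set of Acaca pointed the other way, at 0.62 ± 0.29 (adjusted p = 0.117), with both tumor arrays above both Vector arrays. With the median over the probe sets of a gene, the Acaca difference was -0.0017 and was not called. Fads1 differed by -0.045 (95% interval -0.29 to 0.20, adjusted p = 0.742) and Fads2 by -0.19 (-0.71 to 0.33, adjusted p = 0.493). The interval of Fads1 leaves out changes above 0.29 log2 in size, and that of Fads2 is wider. Scd differed by -1.16 (-2.27 to -0.051, adjusted p = 0.0759), with the gap between the Vector arrays in that error. It was called without Vector replicate 2 (-1.88, adjusted p = 6.99e-05) and not without Vector replicate 1 (-0.44, adjusted p = 0.154). Elovl5 differed by 0.14 (-0.17 to 0.46, adjusted p = 0.402).

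The probe sets of Elovl6 disagreed here. The brighter one differed by -0.35 ± 0.14 (limma adjusted p = 0.0800), and the other, at 779.1 and 610.6 in Vector cells and 1263.8 and 1192.8 in tumors, rose by 0.82 ± 0.15 (adjusted p = 0.00424). The dimmer probe set of Elovl5 also rose, by 0.93 ± 0.28 (adjusted p = 0.0317). Where a gene had a pair of probe sets, the dimmer one stood higher relative to Vector than the brighter one at Acaca, Elovl5, Elovl6 and Me1, and slightly lower at Fasn. The positions of the probes along the transcripts were not used here, so the part of the 3' to 5' difference of the Vector arrays in this disagreement was not tested. Scaling to equal medians took the median over all probe sets from 0.12 to -0.46 and called all 10 members lower, when 54.2% of genes were lower. Elovl5 then stood at -0.45. Without tumor replicate 1, 2 members were called lower, with Me1, Acss2 and Acaca at adjusted p = 0.0599 to 0.101.

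**Figure D2:**
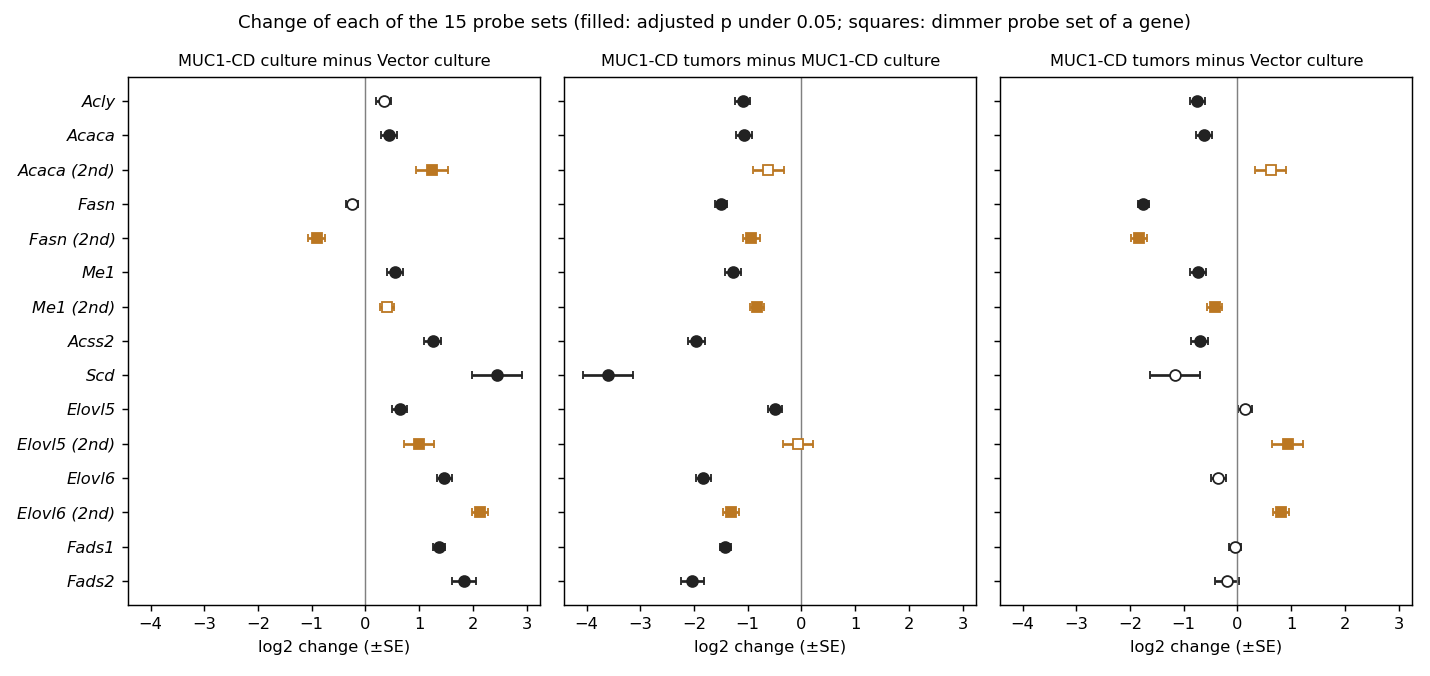
Differences of log2(signal + 16) with SE for the 15 probe sets in the 3 comparisons, round for the brighter and square for the dimmer probe set of a gene, filled where the limma adjusted p is under 0.05. The left panel has 11 probe sets called higher and 1, of Fasn, called lower. The middle panel has 13 called lower and 0 higher, and the right panel 7 lower and 2 higher.

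By probe set, limma called 11 of the 15 higher and 1 lower in MUC1-CD culture against Vector, when 25.0% and 20.7% of all probe sets were called. In tumors against MUC1-CD culture 13 of 15 were called lower, against 7.31% of all, and 0 higher, against 8.54%. In tumors against Vector 7 were lower and 2 higher, against 22.4% and 29.1% of all. Probe sets of 1 gene share its RNA and are not separate evidence.

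A list of 33 other genes linked to fatty acid synthesis, of which 21 were tested, had calls in both directions. It also holds genes outside the route described above, such as those of mitochondrial synthesis. Between the cultures 8 rose and 4 fell (median 0.22 log2), where 21.2% of all genes tested were higher and 24.9% lower. Elovl1, an elongase of very long chains, rose by 0.97 ± 0.10 and Mid1ip1, an activator of acetyl-CoA carboxylase, by 0.69 ± 0.14. Fads3, the neighbour of Fads2, rose by 1.42 ± 0.28, with 989.0 and 511.7 on the Vector arrays and 1872.4 and 2007.9 in MUC1-CD culture. Hacd4, of the dehydratase step of elongation, fell by 1.74 (SE 0.24) and Mcat, of mitochondrial fatty acid synthesis, fell by 1.20 (SE 0.22). The limma adjusted p values of these 5 genes were 0.000611 to 0.00845.

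In tumors against MUC1-CD culture, 4 of the 21 fell and 1 rose (median -0.41), where 8.97% of all genes were lower and 9.82% higher. Those that fell were Scd2, another stearoyl-CoA desaturase, by 1.30 (SE 0.11), Idh1, a cytosolic source of NADPH, by 1.16 (SE 0.13), Me2 by 0.96 (SE 0.12) and Mid1ip1 by 0.86 (SE 0.14). Hacd4 rose by 2.95 ± 0.24, from 36.2 and 22.1 to 305.6 and 354.8, and its other probe set went from a mean of 56.2 to 104. The limma adjusted p values were 0.000718 to 0.0105. At its brightest probe set, Scd2 had signals of 10428.1 and 9003.9 in Vector cells, 10602.1 and 9316.1 in MUC1-CD culture and 3920.9 and 4118.1 in tumors. The Vector and MUC1-CD culture arrays of Scd2 overlapped, unlike those of Scd, and the difference between the genes was not tested. The other 3 probe sets of Scd2 were dimmer and differed among themselves. One was lowest in tumors as well, at 110.0 and 118.5 against 157.0 and 134.4 in Vector cells and 184.0 and 207.1 in MUC1-CD culture. Another went from 50.5 and 39.7 in Vector cells to 433.0 and 502.2 in MUC1-CD culture and 123.6 and 133.1 in tumors, and the last was highest in tumors, at 780.4 and 680.4. Whether probe sets of these near relatives also read each other was not tested. Against Vector, 7 of the 21 were lower and 2 higher in tumors (median -0.13), where 26.6% of all genes were lower and 24.8% higher, so the share of lower calls was near that of all genes. Elovl1 rose by 1.27 ± 0.10 and Scd2 fell by 1.27 (SE 0.11), Hacd3 fell by 1.01 (SE 0.15), Hacd1 fell by 1.08 (SE 0.18) and Idh1 fell by 0.69 (SE 0.13), at limma adjusted p = 0.000168 to 0.00458. The dimmer probe set of Hacd3 showed no fall, with 516.4 and 212.2 in Vector cells and 402.1 and 438.5 in tumors. That of Hacd1 was lower in tumors, at 517.4 and 586.7 against 1253.7 and 1575.3 in Vector cells.

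Regulators of these genes had a mixed pattern. Of 15 tested, 8 rose and 1 fell in MUC1-CD culture against Vector (median 0.90 log2), where 21.2% of all genes tested were higher and 24.9% lower. Insig1, an SREBP target that holds the SREBP complex in the endoplasmic reticulum, had 1551.3 and 1665.1 in Vector cells, 4594.3 and 4099.0 in MUC1-CD culture and 1657.0 and 1740.8 in tumors. It rose by 1.42 ± 0.11 in culture (limma adjusted p = 0.000200) and fell by 1.35 in tumors (SE 0.11, adjusted p = 0.000789). Srebf1, the gene of SREBP-1, had 633.9 and 371.9, then 1224.7 and 1286.2, then 556.6 and 521.9 in the same groups. It rose by 1.34 ± 0.24 (adjusted p = 0.00471) and fell by 1.20 (SE 0.24, adjusted p = 0.0205). Its dimmer probe set had 41.7 and 64.9, then 179.8 and 221.6, then 131.1 and 158.0, so the tumor arrays stayed above Vector there. Srebf2, the gene of SREBP-2, fell by 1.44 in culture (SE 0.35, adjusted p = 0.0152), with the Vector arrays at 2900.5 and 1465.2 and those of MUC1-CD culture at 772.2 and 730.8. Its change in culture and that of Srebf1 in tumors lie outside the rule for named genes and were chosen after their values were seen. Other regulators called outside that rule in culture were Prkaa2 (2.13 ± 0.42), Usf1 (2.14 ± 0.60) and Nr1h2 (1.96 ± 0.54). Prkaa2 was also called in tumors against MUC1-CD culture, where it fell by 1.94 (SE 0.42).

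The nuclear receptor gene Pparg and the phosphatidate phosphatase gene Lpin1 were also highest in MUC1-CD culture. Pparg rose by 1.82 ± 0.22 and then fell by 1.34 (SE 0.22), and Lpin1 rose by 0.90 ± 0.17 and then fell by 1.36 (SE 0.17), with limma adjusted p = 0.000986 to 0.0105. Usf2, an E-box binding factor, rose by 1.83 ± 0.18 in culture (adjusted p = 0.000418) and was at 913.3 and 1022.1 in tumors. In tumors against MUC1-CD culture 7 of the 15 fell and 0 rose by limma, with 1 higher at an unadjusted p under 0.05, where 8.97% of all genes were lower and 9.82% higher. Prkaa1, a catalytic subunit of AMP-activated kinase, fell by 0.85 (SE 0.12) and Mlx, a partner of the carbohydrate response factor, fell by 0.81 (SE 0.14), at adjusted p = 0.00513 and 0.0127. The median over the 15 was -0.26. Against Vector 3 were higher and 3 lower in tumors (median 0.08), shares near or below the 24.8% and 26.6% of all genes.

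Genes of fatty acid oxidation, the opposite route, were counted in the same way. Of 15 tested, 1 rose and 6 fell in MUC1-CD culture against Vector (median -0.19 log2), where 21.2% of all genes tested were higher and 24.9% lower. Acadl, the long-chain acyl-CoA dehydrogenase, rose by 0.94 ± 0.13. Decr1, of the oxidation of unsaturated chains, fell by 0.79 (SE 0.10), Hadh fell by 1.30 (SE 0.20), Acaa2 fell by 0.69 (SE 0.14) and Cpt1b fell by 0.98 (SE 0.21). Their limma adjusted p values were 0.00102 to 0.00923. In tumors against MUC1-CD culture 2 fell (median -0.21), where 8.97% of all genes were lower, namely Hadhb of the trifunctional protein by 0.55 (SE 0.10) and Decr1 by 0.42 (SE 0.10), at adjusted p = 0.0163 and 0.0312. In tumors against Vector 1 rose and 6 fell (median -0.45), where 24.8% of all genes were higher and 26.6% lower. Decr1 fell by 1.21 (SE 0.10), Hadh fell by 1.75 (SE 0.20), Acaa2 fell by 1.15 (SE 0.14) and Hadhb fell by 0.54 (SE 0.10), while Acadl rose by 0.64 ± 0.13, at adjusted p = 0.000152 to 0.00669. The difference between this list and the 10 synthesis genes was not tested.

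**Figure D3:**
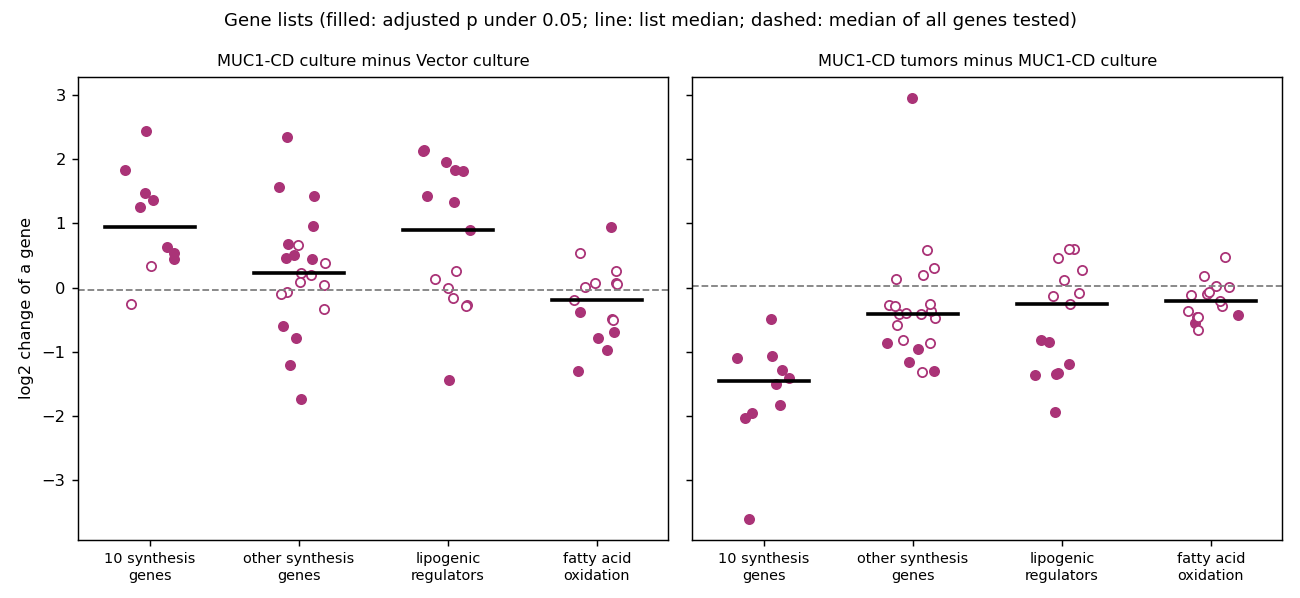
Differences of log2(signal + 16) of each tested gene in the 10 synthesis genes and 3 other lists, filled where the limma adjusted p is under 0.05, with the list median as a line and the median of all genes tested dashed. In the right panel the 10 synthesis genes all lie below 0, with a median of -1.46, and the other lists have medians of -0.41, -0.26 and -0.21.

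The mean profile of the 10 members, each centred on its own mean, was -0.084 and -0.18 log2 on the Vector arrays, 0.90 and 0.85 in MUC1-CD culture and -0.72 and -0.77 in tumors. Acss2, Elovl6 and Me1 lay closest to it, at distances of 0.48, 0.49 and 0.56 log2 over the 6 arrays, and Scd (2.30) and Fasn (1.39) farthest. Among genes other than the members, Isoc1, Ldhb, Lrp8, Acsl3, Pmvk and Paqr8 had the profiles nearest to that mean, at distances of 0.19 to 0.34 log2. Ldhb is a lactate dehydrogenase subunit, Lrp8 a lipoprotein receptor, Acsl3 a long-chain acyl-CoA synthetase and Pmvk the phosphomevalonate kinase of isoprenoid synthesis. Isoc1 had 464.7 and 505.4 in Vector cells, 1108.0 and 1005.9 in MUC1-CD culture and 335.4 and 303.4 in tumors. These genes were picked for their likeness, so it is a description and carries no test.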

How the data were processed

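Total RNA was hybridised to 6 Rat Genome 230 2.0 arrays. The deposited values are MAS5 intensities per probe set on a linear scale, made with MAS5 per the submitters' processing notes. For the MAS5 version, detection calls and filters: not given in the sources used here. Of 31099 probe sets, 57 controls were left out, and 20826 were named by 1 gene in the platform annotation (20758 matched to GRCr8 by gene ID).

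From the deposited intensities, log2(signal + 16) was computed for the 18625 probe sets whose mean signal reached the 40th percentile (61.6). The 3 groups were taken from the titles and fitted together with limma 3.58.1 in R 4.3.3 (lmFit, eBayes with trend, 3 residual degrees of freedom). Tests were two-sided with Benjamini-Hochberg adjustment over all kept probe sets. With 2 arrays a group, the number of arrays limits the precision. A gene was read from its kept probe set of highest mean signal. The script was tested on simulated data with the same spread in all 3 groups, whereas the Vector replicates here differed more than the others.

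The text names all 10 members, up to 5 called genes of smallest p from each of 3 lists in each comparison, and the 6 genes with the nearest profile. The members and lists were chosen with earlier results of these data known. Marker lists covered adipocytes, macrophages, endothelium, skeletal muscle, skin epithelium and fibroblasts. Skin epithelium markers summed to 4706 and 6212 on the Vector arrays, 2035 and 2228 in MUC1-CD culture, and 1922 and 1825 in tumors. Most of that sum was Mgst1, at 4226.0 and 5619.7, then 1759.5 and 1863.3, then 1598.0 and 1450.2 in the same groups. Krt5, Krt14, Krt1 and Ivl did not pass the signal filter. Their means were higher in tumors than in MUC1-CD culture, while that of Krt15 was lower.

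Alternatives were other pseudocounts, filters, scalings, fits and probe set rules, a replicate block, and leaving out each array. Deviations from the group means of arrays with the same replicate number correlated at -0.018 to -0.045 over 18625 probe sets, so the numbers were not taken to pair the arrays.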

Additional observations from a re-analysis of the deposited data

How the results depend on the processing

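Over 17 alternatives, Acss2, Scd, Elovl6, Fads1 and Fads2 kept their calls in MUC1-CD culture against Vector, Fasn, Me1, Acss2, Elovl6, Fads1 and Fads2 theirs in tumors against MUC1-CD culture, and Acly and Fasn theirs in tumors against Vector. Arrays divided by their medians gave 5 members higher and 1 lower between the cultures and 10 lower in tumors against Vector. The median over the probe sets of a gene gave 1 lower between the cultures and 1 higher in tumors against Vector. With each array left out in turn, the members called higher in MUC1-CD culture numbered 5 to 9 and those called lower 0 to 1. Those lower in tumors against MUC1-CD culture numbered 6 to 10 and those higher 0 to 0. In tumors against Vector 2 to 7 were lower and 0 to 1 higher, the latter Elovl5 without Vector replicate 2. Differences from Vector that changed sign were those of Elovl5 in tumors (-0.45 with medians, -0.016 to 0.30 with an array left out), Fads1 (0.065 with quantile normalization, -0.14 to 0.048 with an array left out) and Elovl6 (0.23 with the median over probe sets), and the cause was not tested. With medians, the share of higher among called genes went from 45.9% to 24.8% between the cultures, from 52.3% to 22.3% in tumors against MUC1-CD culture and from 48.2% to 18.1% in tumors against Vector.

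The numbers of the replicates were not taken to pair the arrays. With a replicate block, 7 members were higher in MUC1-CD culture (Acaca at limma adjusted p = 0.0648), 9 were lower in tumors against MUC1-CD culture (Elovl5 at adjusted p = 0.0743) and 6 were lower in tumors against Vector (Scd at adjusted p = 0.0265). Over the whole table, 8522, 2952 and 9589 probe sets were called in these comparisons, and 4391 to 11503, 572 to 8097 and 5884 to 12434 with an array left out. The comparison of tumors with MUC1-CD culture gave 8049 when only its own groups were fitted and 7798 with array weights. Detection calls were not used, so dim probe sets such as those of Fads2 and Scd in tumors carry less certain levels.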
